A study of Mus musculus with 45 samples.

Results

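Foxp3 and 4 members of the Ikaros family, Ikzf1 (Ikaros), Ikzf2 (Helios), Ikzf3 (Aiolos) and Ikzf4 (Eos), were followed across 9 groups of sorted mouse T cells. The genes were chosen by name, as transcription factors that define regulatory T cells (Tregs) or work beside Foxp3 in them. Earlier results of these data were known at that choice. The genes are 5 of the 23420 genes in the deposited count table. All 5 passed the filter on low counts, as did 14668 genes in all.

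Foxp3 is the forkhead factor on which Treg identity and suppressive function depend, and its loss causes fatal autoimmunity in mice. Ikaros proteins bind DNA through amino-terminal zinc fingers, pair with each other through carboxy-terminal ones, and can recruit the NuRD and CtBP repressor complexes. In mice Helios is carried by most thymus-derived Tregs and is tied to their stability, and Eos is a partner of Foxp3 in silencing genes. Ikaros itself is made throughout the lymphoid lineage, and Aiolos is best known from B cells and activated T cells.

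RNA was sequenced from T cells of mice bearing B16 tumours, a transplantable mouse melanoma, with Tregs taken from the tumour or from non-draining lymph nodes (LN), and effector T cells taken from the tumour only. The Treg genotypes were N, Het_Nrp1- (called HetNrp1def here), Het_WT (called HetWT) and WT, and the effector T cells were WT. Nrp1 encodes neuropilin-1, a surface receptor of Tregs. HetNrp1def and HetWT were the cells labelled Nrp1-deficient and wild type in heterozygous mice. The N samples, named so from their titles, carry the same genotype label as HetNrp1def, while the design text also speaks of homozygous deficient mice. The sources used here do not give the allele, any Cre driver, the ages or the markers used in sorting. Each group had 5 libraries, 3 from cells sorted singly (replicates 2, 3 and 4) and 2 from cells sorted doubly (ds1 and ds2, read from the names), each made from few cells by amplification of the cDNA. The labels do not tie replicates to different mice, so the p-values below speak for the scatter of these libraries, part of which may be technical.

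Totals ran from 2945638 to 35787148 counts per library, and the ds2 libraries were the shallowest at 2945638 to 5408375. In 4 pairs of libraries the counts were near identical, with a chi-square per degree of freedom of 2.44 to 2.77 against at least 70.3 in the other 86 pairs. They were replicates 3 and 4 of the HetNrp1def and HetWT LN groups, and ds1 and 4 of the HetNrp1def and HetWT tumour groups. Each pair was summed to 1 sample, which left 41 samples (n = 4 for HetNrp1def and HetWT in either tissue, n = 5 elsewhere). In both tumour pairs, a library whose name marks double sorting was summed with a library lacking that mark. Nrp1 was counted in every group, though at only 2.70 to 19.2 CPM in effector T cells. Between genotypes its level did not pass the test used below, and neither did that of any other gene. Its medians were 157 CPM in N tumour, 126 CPM in HetNrp1def tumour, 147 CPM in HetWT tumour and 131 CPM in WT tumour Tregs. In LN its medians were 187 CPM in N, 151 CPM in HetNrp1def, 337 CPM in HetWT and 388 CPM in WT Tregs. The part of the gene that was deleted is not given, so these levels do not check the labels.

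Levels are CPM, counts relative to a common library size scaled by TMM, and fold changes are log2 values from edgeR's quasi-likelihood test with Benjamini-Hochberg adjustment over all 14668 genes, called at an adjusted p under 0.05. Values of a group are listed in the order replicate 2, 3, 4, ds1 and ds2, with a joined pair at the place of its first member for the LN pairs and at the place of ds1 for the tumour pairs. The TMM factors ran from 0.552 to 0.820 in the 7 ds1 samples that were not joined and from 1.14 to 1.22 in ds2. The part of such library differences in the ds1 and ds2 extremes below was not tested.

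The genes lie on 4 chromosomes of mm10 in the GENCODE vM21 annotation. Foxp3 is at chrX:7573644-7595245 on the plus strand, Ikzf1 at chr11:11685003-11772926 on the plus strand and Ikzf2 at chr1:69531214-69687245 on the minus strand. Ikzf3 is at chr11:98464902-98546031 and Ikzf4 at chr10:128630843-128645991, both on the minus strand. Exons of Foxp3 share 590 bases, 12.9% of their length, with Ccdc22, a gene on the opposite strand that is also in the count table. They share 266 bases (5.81%) with Ppp1r3f and 373 bases (8.15%) with Gm36995, both on that opposite strand, and 853 bases (18.6%) with Flicr, a non-coding gene on the same strand as Foxp3. The sources used here do not give the strand setting of the counting, so reads in the bases shared with the opposite strand cannot be assigned to either gene, and those shared with Flicr cannot be assigned whatever the setting. Gm36995 and Flicr have no row under these names in the count table, while Ppp1r3f has one. The level of Ccdc22 was 4.02 ± 6.22 CPM in WT tumour Tregs and 17.5 ± 12.8 CPM in effector T cells (SD, n = 5 each).

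RefSeq promoter windows (GRCm38.p6, 250 bases before to 50 after each annotated start) were given for Foxp3 and Ikzf1 among the 5, with 2 starts each. They are shown because these genes moved in opposite directions between Tregs and effector T cells, and because CpG-poor and CpG-rich starts are both present. Capitals mark CG dinucleotides. The Foxp3 windows are chrX:7579426-7579725 and chrX:7580233-7580532, and the Ikzf1 windows are chr11:11685675-11685974 and chr11:11689927-11690226, all on the plus strand.
Foxp3 start A: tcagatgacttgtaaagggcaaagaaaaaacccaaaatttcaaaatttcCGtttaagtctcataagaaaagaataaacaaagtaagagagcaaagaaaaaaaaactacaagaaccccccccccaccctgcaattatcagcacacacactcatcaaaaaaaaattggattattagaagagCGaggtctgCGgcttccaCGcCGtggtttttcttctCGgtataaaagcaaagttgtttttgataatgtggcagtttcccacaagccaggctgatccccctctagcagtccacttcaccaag
Foxp3 start B: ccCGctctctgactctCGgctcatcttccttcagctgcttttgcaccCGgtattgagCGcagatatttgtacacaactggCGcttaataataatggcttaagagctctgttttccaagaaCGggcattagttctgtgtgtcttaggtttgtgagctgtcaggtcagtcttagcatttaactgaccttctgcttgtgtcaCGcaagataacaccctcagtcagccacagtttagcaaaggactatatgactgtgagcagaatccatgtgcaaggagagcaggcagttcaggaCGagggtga
Ikzf1 start A: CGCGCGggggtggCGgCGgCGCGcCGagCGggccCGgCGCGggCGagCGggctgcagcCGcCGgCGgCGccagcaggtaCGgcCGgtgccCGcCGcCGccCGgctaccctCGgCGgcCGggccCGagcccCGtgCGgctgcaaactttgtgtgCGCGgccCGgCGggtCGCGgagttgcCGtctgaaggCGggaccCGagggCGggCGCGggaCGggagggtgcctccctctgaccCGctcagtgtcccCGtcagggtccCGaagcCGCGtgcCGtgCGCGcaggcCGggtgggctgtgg
Ikzf1 start B: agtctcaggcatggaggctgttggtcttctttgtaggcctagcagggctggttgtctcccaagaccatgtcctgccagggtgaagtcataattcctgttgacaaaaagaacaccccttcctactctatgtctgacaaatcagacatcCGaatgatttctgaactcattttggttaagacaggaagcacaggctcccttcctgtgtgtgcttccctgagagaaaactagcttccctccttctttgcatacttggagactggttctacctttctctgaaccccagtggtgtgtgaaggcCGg
The Foxp3 windows hold 6 and 8 CG dinucleotides, close to the median of 7 over 32851 RefSeq windows of that length. Start A of Ikzf1 holds 52, with 81.3% G and C, and start B of Ikzf1 holds 2. TGGGAA, the core of the Ikaros motif, searched on both strands, was found in start A of Foxp3 and in none of the other 3 windows, and it occurs in 25.6% of all windows. GTAAACA, the forkhead core, was in none of the 4 and occurs in 3.65% of all windows. A match is a description of the letters and not a binding site.

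All 5 genes differed between tumour Tregs and tumour effector T cells. Foxp3, Ikzf2, Ikzf3 and Ikzf4 were higher in Tregs and Ikzf1 was lower. The widest gap was that of Ikzf2, whose mean was 1091 CPM over the 4 Treg groups and 12.7 CPM in effector T cells. Against that, 11.2% of all tested genes passed the test in this comparison, 5.43% higher and 5.79% lower in Tregs. The median log2 fold change was 4.31 over the 5 genes and -0.13 over all genes. Because the 5 genes were chosen as Treg factors with earlier results known, their excess over all genes is a description and not a test. Within WT all 5 passed as well, beside 5.71% of all genes. The share of all genes whose samples do not overlap between Tregs and effector T cells was not counted. In bulk samples, fewer cells of a type and less RNA per cell cannot be told apart.

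**Figure D1:**
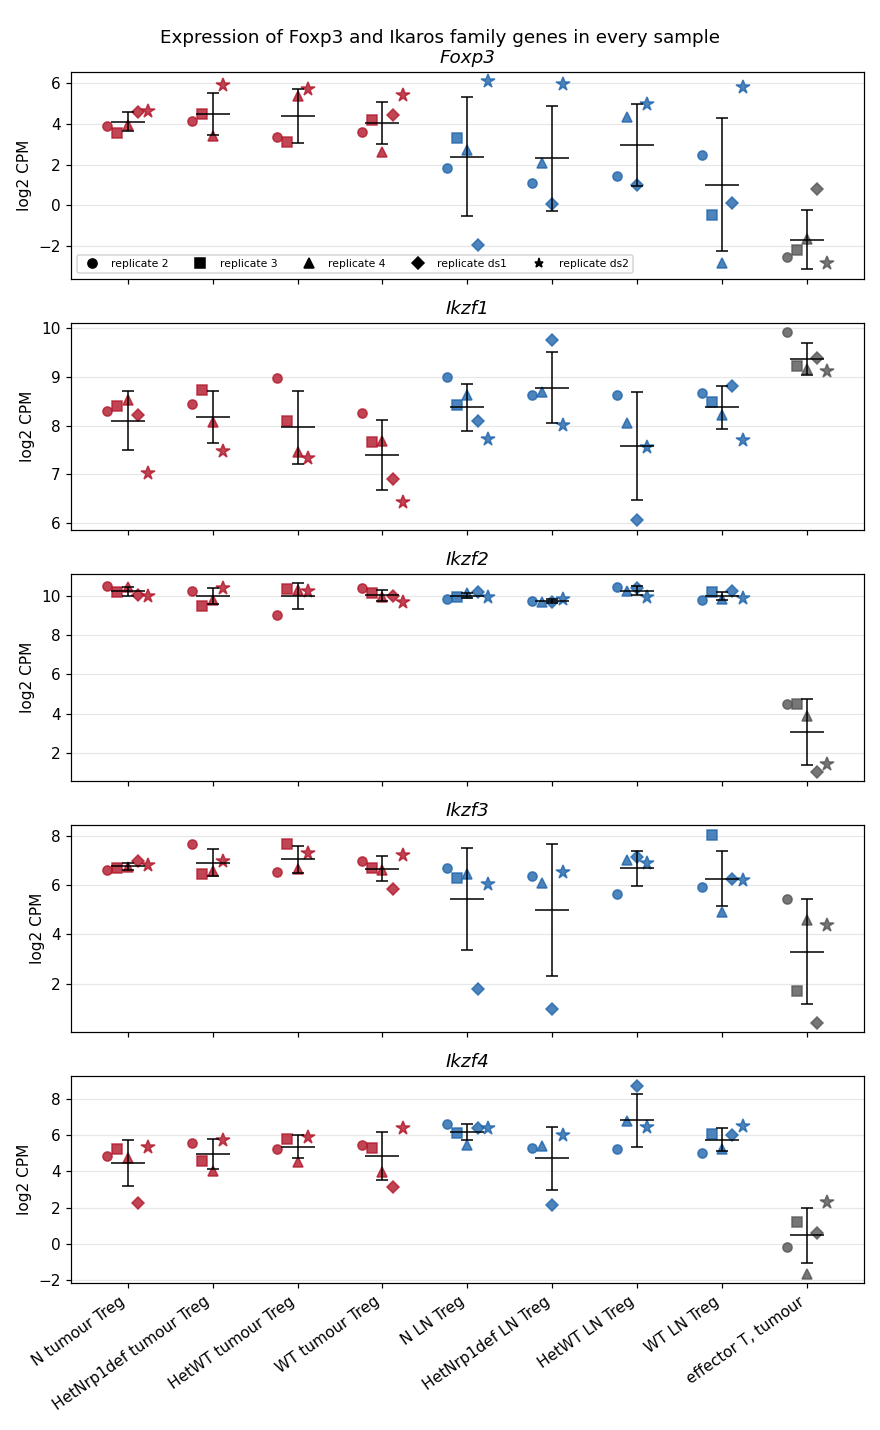
Levels of the 5 genes in every sample, as log2 CPM (prior count 2), one panel a gene with its own scale and one column a group. Points are samples, with the symbol giving the replicate (a joined pair has the symbol of replicate 4), and bars give the mean and SD. Foxp3, Ikzf1, Ikzf2 and Ikzf3 separate effector T cells from tumour Tregs in every sample, and the star of ds2 is the highest Foxp3 value in all 8 Treg groups.

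Foxp3 was measured at 14.8, 11.6, 15.2, 23.7 and 25.04 CPM in N tumour Tregs. It was 17.6, 22.6, 10.4 and 60.02 CPM in HetNrp1def tumour Tregs and 10.1, 8.66, 41.2 and 51.9 CPM in HetWT tumour Tregs. WT tumour Tregs had 12.3, 17.97, 5.99, 21.3 and 42.6 CPM, against 0.0309, 0.0807, 0.182, 1.62 and 0 CPM in effector T cells. All 18 tumour Treg samples lay above the highest effector value of 1.62 CPM, which was ds1, and ds2 was the highest sample in each of the 4 Treg groups. The effector value of 0 in ds2 allows up to 0.858 CPM, the level of 3 counts in that library, for counting error only. Only 19 Foxp3 reads were counted over the 5 effector samples, 15 of them in ds1, so the size of the fold rests on few reads. The fold change of Foxp3 on the log2 scale was 5.87 (SE 1.42, adjusted p = 0.00298), and within WT it was 5.67 (SE 1.47, adjusted p = 0.00968).

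Helios was high in Tregs of every group. Ikzf2 was 1432, 1149.6, 1369.7, 1056 and 1004 CPM in N tumour Tregs and 1221, 722, 867 and 1344 CPM in HetNrp1def tumour Tregs. HetWT tumour Tregs had 519, 1305, 1251 and 1217 CPM. WT tumour Tregs had 1342, 1109, 970.1, 1021 and 805 CPM, against 21.99, 22.5, 14.7, 1.94 and 2.57 CPM in effector T cells. The lowest of the 36 Treg samples, 519 CPM in replicate 2 of HetWT tumour, was far above the highest effector sample at 22.5 CPM. The log2 fold change was 6.40 (SE 0.43, adjusted p = 1.86e-16) over the 4 genotypes and 6.35 (SE 0.45, adjusted p = 1.28e-15) within WT. Within WT the call was kept with each sample of the compared groups left out in turn.

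Ikaros ran the other way. Ikzf1 was 315, 339, 365, 299 and 131 CPM in N tumour Tregs and 345, 423, 268 and 179 CPM in HetNrp1def tumour Tregs. HetWT tumour Tregs had 502, 275, 176 and 161 CPM. WT tumour Tregs had 307, 203, 205, 121 and 86.8 CPM, against 958, 597, 572, 668 and 558 CPM in effector T cells. None of the 18 tumour Treg samples reached the lowest effector sample at 558 CPM, and ds2 was the lowest sample in each of the 4 tumour Treg groups. Ikzf1 had a log2 fold change of -1.37 (SE 0.29, adjusted p = 0.000582), and within WT it was -1.86 (SE 0.40, adjusted p = 0.00131).

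Aiolos and Eos were both higher in tumour Tregs than in effector T cells. Ikzf3 was 98.3, 105, 107, 128 and 113 CPM in N tumour Tregs, 204, 88.4, 96.7 and 126 CPM in HetNrp1def tumour Tregs and 93.04, 209, 102 and 159 CPM in HetWT tumour Tregs. WT tumour Tregs had 128, 104, 97.7, 58.2 and 149 CPM of Ikzf3, against 43.1, 3.15, 23.8, 1.19 and 20.9 CPM in effector T cells. All 18 tumour Treg samples lay above the highest effector sample, replicate 2. The log2 fold change of Ikzf3 was 2.71 (SE 0.65, adjusted p = 0.00251). Within WT it was 2.54 (SE 0.71, adjusted p = 0.0180), and it lost the call without effector replicate 3 (2.27, adjusted p = 0.0648), without effector replicate 4 (2.56, adjusted p = 0.0507), in a fit of the compared groups only (2.53, adjusted p = 0.0539) or with the ds2 libraries of all groups left out (2.32, adjusted p = 0.192).

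Ikzf4 was 28.3, 36.6, 26.5, 4.61 and 40.02 CPM in N tumour Tregs, 46.01, 23.8, 15.8 and 52.9 CPM in HetNrp1def tumour Tregs and 37.96, 54.5, 22.4 and 57.97 CPM in HetWT tumour Tregs. WT tumour Tregs had 43.99, 38.6, 15.1, 8.53 and 83.4 CPM of Ikzf4, against 0.742, 2.18, 0.182, 1.40 and 4.86 CPM in effector T cells. In 17 of 18 tumour Treg samples the level was above the highest effector sample, and ds1 of N, at 4.61 CPM, lay just under it. The log2 fold change of Ikzf4 was 4.31 (SE 0.74, adjusted p = 2.45e-05), and within WT it was 4.41 (SE 0.79, adjusted p = 8.49e-05).

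The fit of the doubly sorted libraries kept a single sample of HetNrp1def tumour and of HetWT tumour, so its calls are not given. Its log2 fold changes over the 4 genotypes were 9.03 for Ikzf2, 5.74 for Foxp3, 3.83 for Ikzf4, 3.50 for Ikzf3 and -1.84 for Ikzf1. With the authors' deposited log2 values 2 of the 5, Ikzf2 and Ikzf4, passed within WT, beside 69 genes in all. On those deposited values Foxp3 had a log2 fold change of 1.92 over the 4 genotypes (adjusted p = 0.191) with limma. Melanoma genes were also higher in tumour Tregs, with 4 of 6 past the test and summed levels of 4.29 to 3407 CPM in tumour Treg samples, against 3.01 to 75.3 CPM in effector samples. B cell markers summed to 3.997 to 39.7 CPM in tumour Tregs and 8.31 to 59.2 CPM in effector T cells, with 3 of 9 lower in Tregs, and Pax5, a B cell factor, was at 0 in every HetWT tumour sample. The sums of 6 T cell markers were 2685 to 6141 CPM in tumour Tregs and 3165 to 7169.7 CPM in effector T cells. The part of these cells in the differences was not tested.

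The balance within the family can be read inside a sample, where library size cancels. In reads, Ikzf2 stood to Ikzf1 at a log2 ratio of 2.12 ± 0.48 in N tumour Tregs (n = 5), 1.80 ± 0.88 in HetNrp1def tumour Tregs (n = 4), 2.01 ± 1.34 in HetWT tumour Tregs (n = 4) and 2.62 ± 0.50 in WT tumour Tregs (n = 5). In effector T cells it was -6.33 ± 1.65 (SD, n = 5). The LN groups lay between 0.96 ± 0.79 in HetNrp1def and 2.68 ± 1.12 in HetWT (n = 4 each). The lowest Treg sample, ds1 of HetNrp1def LN at -0.09, was above the highest effector sample at -4.73. Ikzf4 to Ikzf2 was -5.19 ± 1.37 in WT tumour Tregs and -2.83 ± 3.02 in effector T cells (n = 5 each), where the samples ran from -6.33 to 0.92 and overlapped every Treg group.

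**Figure D2:**
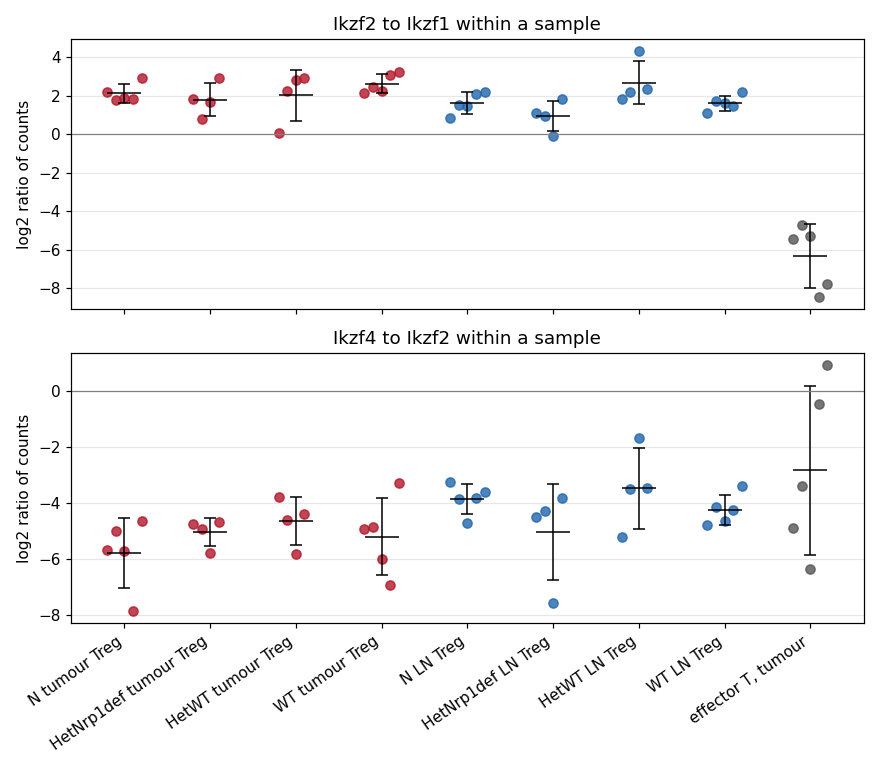
Log2 ratio of the read counts of Ikzf2 to Ikzf1 (top) and of Ikzf4 to Ikzf2 (bottom) within each sample, by group, with mean and SD. Ikzf2 to Ikzf1 is at or below -4.73 in all 5 effector samples and at or above -0.09 in all 36 Treg samples, while Ikzf4 to Ikzf2 overlaps between the cell types.

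Per kilobase of exon, a scale on which genes can be set side by side, Ikzf2 stood first in 7 of the 8 Treg groups, from 87.6 CPM per kb in WT LN to 106 CPM per kb in HetWT LN. In HetNrp1def LN it was second, with 73.0 CPM per kb against 83.4 CPM per kb for Ikzf1. In effector T cells Ikzf1 led at 116 CPM per kb and Ikzf2 was at 1.10 CPM per kb. Foxp3 was the lowest of the 5 in 8 of the 9 groups, at 2.81 to 6.11 CPM per kb in Tregs. The exon lengths are unions over annotated transcripts, so they overstate the length of the RNA that is read.

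Genes from lists chosen around these factors place them in the same comparison. Of 17 tested genes known to be high in Tregs, 16 were higher in tumour Tregs than in effector T cells (median log2 fold change 5.21). The smallest adjusted p belonged to Il2ra, the alpha chain of the interleukin-2 receptor, at 601 CPM in Tregs and 6.81 CPM in effector T cells (log2 6.41), to Tnfrsf18 (GITR, log2 3.10), to Il2rb (log2 6.53) and to Cish, an inhibitor of cytokine signalling (log2 4.58). Of 12 genes known to be low in Tregs, 8 fell and 1 rose. Tcf7, which keeps T cells naive or memory-like, fell by 4.26 on the log2 scale, Lef1 fell by 3.57, Igfbp4 fell by 7.94 and Satb1, a chromatin organiser that is held down in Tregs, fell by 2.79. These lists were drawn up from common knowledge with earlier results of these data in view.

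Of 25 regulators of the Foxp3 gene, 3 rose and 5 fell in tumour Tregs against effector T cells, beside 11.2% of all genes in either direction, and their median log2 fold change was 0.08 against -0.13 over all genes. Nr4a2, a nuclear receptor induced by antigen signals, had means of 34.8 CPM in Tregs and 0.512 CPM in effector T cells (log2 6.004 (SE 1.24, adjusted p = 0.000415)). Bach2, a repressor of effector programmes, fell by 3.95 and Foxo1, an activator of Foxp3, fell by 1.67 on the log2 scale. Of 17 genes of the co-repressor complexes, Chd3, a NuRD helicase (log2 -1.49 (SE 0.30, adjusted p = 0.000296)), and Ctbp1 (log2 -1.17 (SE 0.35, adjusted p = 0.0185)) fell and none rose, a share close to the 11.2% of all genes, and the median was -0.10. Among the 4 other Ikaros and FoxP genes, Foxp1 fell, with 87.6 CPM in Tregs and 687 CPM in effector T cells (log2 -3.01 (SE 0.27, adjusted p = 2.09e-12)). Ikzf5, the fifth Ikaros family gene, was at 40.4 CPM in Tregs and 76.2 CPM in effector T cells and did not pass the test (log2 -0.97 (SE 0.56, adjusted p = 0.316)).

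Between tumour and LN Tregs, none of the 5 genes passed the test over the mean of the 4 genotypes, where 11.2% of all tested genes passed, 5.84% higher and 5.37% lower in tumour. At an unadjusted p under 0.05 the count was 1 of the 5, Ikzf4, and 22.9% of all genes. Ikzf4 came nearest, with group means of 27.2 to 43.2 CPM in tumour Tregs and 37.4 to 163 CPM in LN Tregs. Ikzf2 had group means of 1038 to 1202 CPM in tumour and 847 to 1229 CPM in LN.

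Eos in LN Tregs was measured at 95.8, 68.8, 42.999, 83.6 and 81.8 CPM in N and 38.4, 42.3, 4.28 and 64.5 CPM in HetNrp1def. HetWT LN Tregs had 37.9, 108, 419 and 88.1 CPM and WT LN Tregs had 31.7, 65.9, 36.8, 63.7 and 89.8 CPM. Set beside the tumour values above, tumour and LN overlapped in HetNrp1def, HetWT and WT. In N the highest tumour value was 40.02 CPM and the lowest LN value 42.999 CPM, and how many of all genes part in this way was not counted. The ds1 samples gave both the highest LN value (HetWT) and the lowest one (HetNrp1def). The log2 fold change, tumour over LN, was -1.02 (SE 0.36, adjusted p = 0.0575) over the 4 genotypes, -1.45 (SE 0.69, adjusted p = 0.484) in N, -0.11 in HetNrp1def, -1.92 in HetWT and -0.60 in WT. The joint value missed the threshold narrowly and passed it in 6 of 10 alternatives, among them the fit with the replicate block (adjusted p = 0.0210), the 45 libraries as deposited (0.0207) and DESeq2 (0.0158). With limma on the authors' deposited log2 values it was -1.78 (adjusted p = 7.34e-07), beside 14% of the genes of that table. That fit, like the one on the 45 libraries as deposited, took the near-identical pairs as separate samples.

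Foxp3 in LN Tregs was 3.45, 9.78, 6.44, 0.116 and 68.8 CPM in N and 2.02, 4.15, 0.901 and 63.2 CPM in HetNrp1def. It was 2.60, 20.1, 1.84 and 32.02 CPM in HetWT and 5.44, 0.573, 0, 0.951 and 57.4 CPM in WT LN Tregs. The ds2 sample was the highest in every one of these groups, and 5 of the 18 LN samples were no higher than the highest effector sample. In those 5 samples other Treg genes were present, with Il2ra at 579 to 1088 CPM and Ikzf2 at 810 to 1216 CPM. The 0 in WT LN replicate 4 allows up to 0.306 CPM for counting error. Tumour over LN, Foxp3 had a log2 fold change of 0.58 (SE 0.63, adjusted p = 0.662), with a 95% interval of -0.70 to 1.86.

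The order of the tissues in Foxp3 differed between replicate labels. In replicate 2 the 4 tumour samples had 10.1 to 17.6 CPM and the 4 LN samples 2.02 to 5.44 CPM, with no overlap. In replicates 3 and 4 the tissues overlapped. In ds1, tumour samples had 21.3 and 23.7 CPM and the 4 LN samples 0.116 to 1.84 CPM. In ds2, the 4 tumour samples had 25.04 to 60.02 CPM and the 4 LN samples 32.02 to 68.8 CPM. Without ds2 the median was 14.99 CPM over 14 tumour samples and 2.31 CPM over 14 LN samples, with ranges of 5.99 to 41.2 CPM and 0 to 20.1 CPM, and the log2 fold change was 2.15 (adjusted p = 0.0557). The replicate block gave 1.58 (adjusted p = 0.0694). The ds2 libraries were also the shallowest, and the part of sorting, depth or handling in their Foxp3 level was not tested.

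**Figure D3:**
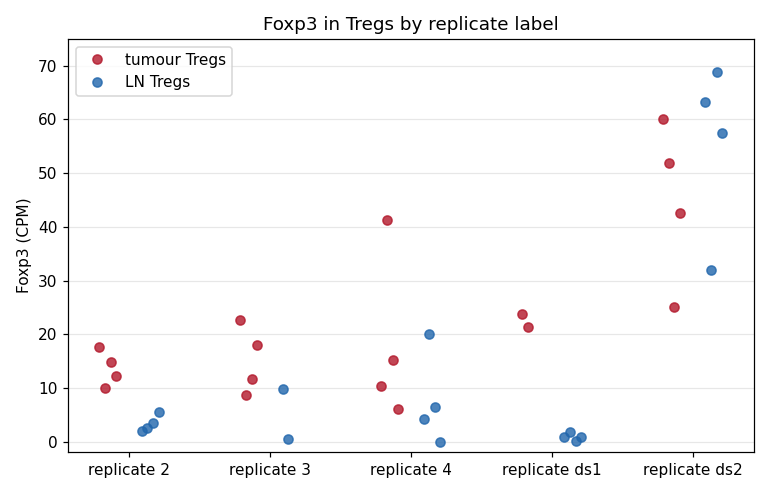
Foxp3 in CPM in each Treg sample by replicate label, with tumour Tregs to the left of LN Tregs within a label; joined pairs stand under replicate 4. Tumour samples lie above LN samples in replicate 2 and in ds1, and in ds2 both tissues lie between 25.04 and 68.8 CPM.

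Helios was at similar levels in tumour and LN by edgeR. Ikzf2 was 909.5, 980.0, 1109, 1171 and 989 CPM in N, 854, 812, 810.3 and 913 CPM in HetNrp1def, 1398, 1222, 1324 and 973 CPM in HetWT and 866, 1163, 907, 1216 and 934 CPM in WT LN Tregs. All 18 of these samples lay within the tumour range of 519 to 1432 CPM. Tumour over LN, Ikzf2 had a log2 fold change of 0.09 (SE 0.19, adjusted p = 0.847), with a 95% interval of -0.29 to 0.47. In the limma fit of the 45 libraries on the authors' deposited log2 values the sign turned, to -1.05 (adjusted p = 0.00703).

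Ikzf1 was 508, 344, 397, 274 and 213 CPM in N and 395, 415, 862 and 256 CPM in HetNrp1def LN Tregs. It was 396, 265, 66.6 and 189 CPM in HetWT and 408, 356, 297, 447 and 208 CPM in WT LN Tregs. The LN range of 66.6 to 862 CPM enclosed the tumour range of 86.8 to 502 CPM, and both its ends were ds1 samples. Tumour over LN, its log2 fold change was -0.39 (SE 0.21, adjusted p = 0.268).

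Ikzf3 was 105, 77.95, 88.6, 3.26 and 66.7 CPM in N and 83.1, 67.95, 1.80 and 92.6 CPM in HetNrp1def LN Tregs. It was 50.004, 130.5, 143 and 122 CPM in HetWT and 61.6, 269, 30.1, 75.6 and 74.6 CPM in WT LN Tregs. The ds1 samples of N and HetNrp1def stood far below the rest of their groups, and tumour and LN samples overlapped in all 4 genotypes. Tumour over LN, its log2 fold change was 0.54 (SE 0.35, adjusted p = 0.393).

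B cell markers moved with tissue beside these genes, with 8 of 9 lower in tumour and summed levels of 3.997 to 39.7 CPM in tumour Treg samples against 7.13 to 756 CPM in LN Treg samples. The 6 melanoma genes were all higher in tumour, at 4.29 to 3407 CPM summed, against 0.317 to 71.9 CPM in LN. NK cell genes reached 834 CPM in ds1 of HetNrp1def LN, the sample with the highest Ikzf1 of all Tregs, against at most 52.1 CPM in any other Treg sample. In that sample Ikzf3 was at 1.80 CPM and Ikzf4 at 4.28 CPM. The part of other cells in these values was not tested.

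In each genotype on its own, none of the 5 genes passed edgeR's test between tumour and LN. At an unadjusted p under 0.05 there were Ikzf4 in N, beside 9.5% of all genes, Ikzf4 in HetWT, beside 8.12%, and Ikzf1 in WT, beside 10.4%. DESeq2 called none of the 5, while it called 389 genes in N, 833 in HetNrp1def, 262 in HetWT and 510 in WT. Limma on the authors' deposited log2 values, with the 45 libraries, called Ikzf4 in N (-1.87, adjusted p = 0.0191, beside 3.81% of the genes of that table) and in HetWT (-2.01, adjusted p = 0.0174, beside 2.83%). The share of all genes that passed edgeR's test in either direction was 0.791% in N, 0.654% in HetNrp1def, 0.239% in HetWT and 0.873% in WT. The fold changes of Foxp3 were 0.03 in N, 0.66 in HetNrp1def, 0.98 in HetWT and 0.64 in WT, each with an SE of at least 1.18. Without the ds2 sample of the LN group alone the fold change of Foxp3 was 1.86 in N (adjusted p = 0.721), 3.52 in HetNrp1def (0.398), 1.75 in HetWT (0.816) and 3.52 in WT (0.273). Without the ds2 sample of the tumour group it was -0.11 in N, 0.0064 in HetNrp1def, 0.54 in HetWT and 0.16 in WT. For Ikzf1, WT was the only genotype with an unadjusted p under 0.05 (-0.89 (SE 0.39, adjusted p = 0.386)), and HetWT had the opposite sign at 0.28.

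The lists around the factors held genes called in either direction between tissues, where 11.2% of all genes were called. Of the genes high in Tregs, 6 rose and 4 fell in tumour out of 17, with a median log2 fold change of -0.08, as over all genes. Among those that rose were Tnfrsf18, at 1398 CPM in tumour and 469.7 CPM in LN (log2 1.60 (SE 0.15, adjusted p = 7.74e-12)), Entpd1 (CD39, log2 2.73) and Ctla4, an inhibitory receptor (log2 1.93). Gpr83, among those that fell, was at 9.11 CPM in tumour and 104 CPM in LN (log2 -3.86 (SE 0.52, adjusted p = 1.91e-07)). Of the genes low in Tregs 5 of 12 fell and 2 rose in tumour, with Igfbp4 (log2 -5.74), Tcf7 (log2 -2.37), Dapl1 (log2 -4.73) and Lef1 (log2 -1.94) leading. The median over the list of genes low in Tregs was -0.81.

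Of the Foxp3 regulators, 2 rose and 4 fell in tumour out of 25, with a median of -0.08. Bach2 had means of 13.9 CPM in tumour and 125 CPM in LN (log2 -3.20 (SE 0.43, adjusted p = 2.89e-07)). Satb1 (log2 -1.30) and Foxo1 (log2 -1.12) fell too, and Nr4a2 rose (log2 2.32). Of 17 co-repressor genes, Chd3 (log2 -1.45 (SE 0.22, adjusted p = 2.29e-06)), Mbd3 (log2 -1.34 (SE 0.32, adjusted p = 0.00242)) and Hdac2 (log2 -0.90 (SE 0.29, adjusted p = 0.0290)) fell and none rose, with a median of -0.23. Foxp1, in the forkhead family of Foxp3, was at 87.6 CPM in tumour and 438 CPM in LN Tregs (log2 -2.35 (SE 0.21, adjusted p = 2.10e-12)). The tumour Treg samples in this comparison are also those set against effector T cells, so the values of the comparisons share them.

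The genotype comparisons set Tregs labelled Nrp1-deficient against Tregs labelled wild type, labels that the Nrp1 levels do not check. Neither the 5 genes nor any other gene passed edgeR's test in these comparisons. Of 14668 genes, 0 (0%) were called with edgeR in N against WT tumour, N against WT LN, HetNrp1def against HetWT tumour or HetNrp1def against HetWT LN. At an unadjusted p under 0.05 there were 376 genes (2.56%) for N against WT tumour and 616 (4.2%) for N against WT LN, and none of the 5 members was among them. For HetNrp1def against HetWT there were 291 (1.98%) in tumour, with none of the 5, and 952 (6.49%) in LN. DESeq2 called 3 genes for N against WT in tumour and 19 in LN, and for HetNrp1def against HetWT it called 8 in tumour and 318 in LN. With limma on the authors' deposited log2 values 17 genes were called for N against WT in tumour, 1 for HetNrp1def against HetWT in LN and 0 in the other two comparisons. In tumour Tregs no member passed with either of these tools. By edgeR the log2 fold change of Ikzf1 in N against WT tumour was 0.65 (SE 0.39, adjusted p = 0.9999). The intervals were wide for Foxp3, -2.56 to 2.26 in N against WT tumour, and narrower for Ikzf2, -0.52 to 0.92, so a change of Foxp3 by several fold would not have been detectable at this spread.

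**Figure D4:**
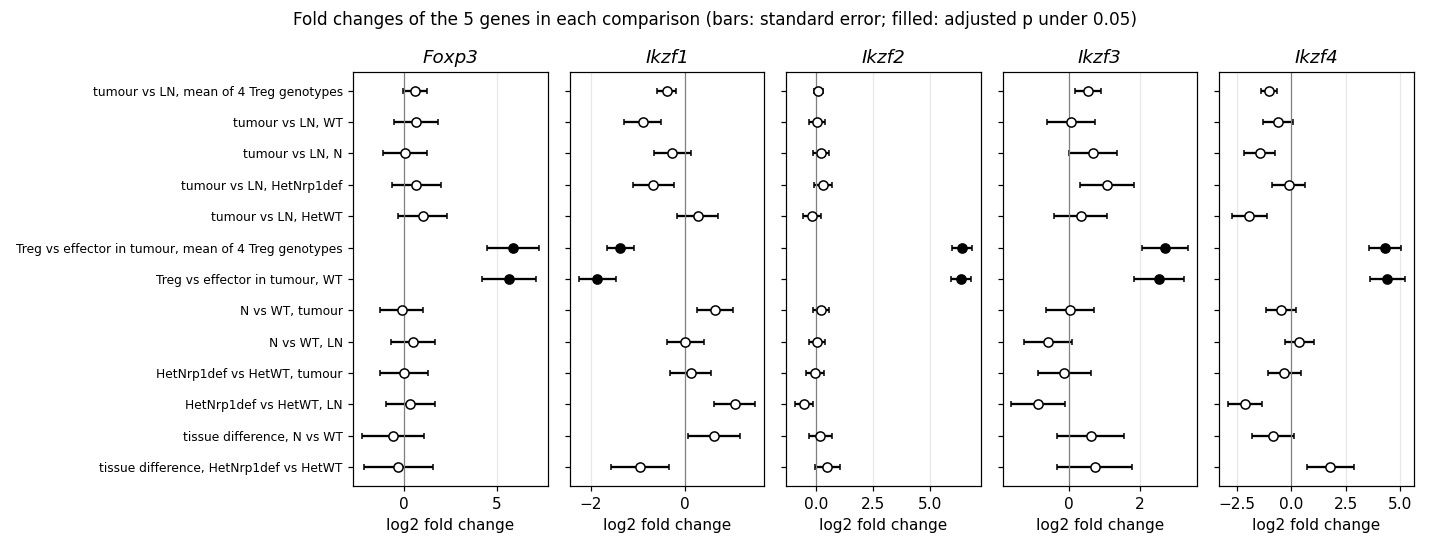
Log2 fold changes of the 5 genes in each comparison, with the group named first over the group named after it; bars are standard errors, filled points passed an adjusted p of 0.05, and each panel has its own scale. All 5 genes are filled against effector T cells, none is between tissues or genotypes, and the Ikzf4 value nearest to a call between tissues is -1.02.

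In LN the heterozygous pair gave the lowest p of the genotype comparisons. Ikzf4 averaged 37.4 ± 24.9 CPM in HetNrp1def and 163 ± 173 CPM in HetWT (SD, n = 4 each), a log2 fold change of -2.12 (SE 0.79, adjusted p = 0.675) with an unadjusted p of 0.00946. Ikzf1 averaged 482 ± 263 CPM in HetNrp1def and 229 ± 138 CPM in HetWT, a log2 fold change of 1.07 (SE 0.44, adjusted p = 0.686) with an unadjusted p of 0.0187. Both differences were widest in ds1, where HetNrp1def had 4.28 CPM of Ikzf4 and 862 CPM of Ikzf1 and HetWT had 419 CPM of Ikzf4 and 66.6 CPM of Ikzf1. Without the HetWT ds1 sample the fold change of Ikzf4 was -1.05 (adjusted p = 0.869). DESeq2 called Ikzf4 at -2.46 (adjusted p = 0.0368).

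The difference between genotypes of the tissue effect was tested as an interaction. For N against WT it was -0.85 for Ikzf4 and 0.63 for Ikzf1, and for HetNrp1def against HetWT it was 1.80 for Ikzf4 and -0.94 for Ikzf1. None of the 5 genes had an unadjusted p under 0.05 here, and 0 of 14668 genes were called by edgeR in either interaction, with 455 (3.1%) for N against WT and 571 (3.89%) for HetNrp1def against HetWT at an unadjusted p under 0.05. DESeq2 called 10 genes for N against WT and 29 for HetNrp1def against HetWT, and limma on the authors' deposited log2 values called 1 and 0, none of them a member.

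Ordered by mean level, neighbouring groups overlapped for every gene with a single exception. From the highest, Foxp3 ran HetWT tumour, HetNrp1def tumour, WT tumour, N tumour, N LN, HetNrp1def LN, HetWT LN, WT LN and effector T cells. Ikzf1 ran from effector T cells (671 ± 166 CPM, n = 5) to WT tumour (184 ± 85.9 CPM, n = 5). The exception was the step of Ikzf2 between HetNrp1def LN (847 ± 47.97 CPM, n = 4) and effector T cells (12.7 ± 10.1 CPM, n = 5).

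Over the 36 Treg samples, the replicate label took a larger share of the variance of Foxp3 in log2 CPM (39.7%) than its group did (29.0%), and for Ikzf2 the label took 1.40% and the group 22.4%. For Ikzf1 the shares were 32.6% and 32.5%, for Ikzf3 27.6% and 25.5%, and for Ikzf4 13.8% and 37.0%. Besides its place at the top for Foxp3, ds2 was the highest sample for Ikzf4 in 6 of 8 Treg groups and the lowest for Ikzf1 in 7 of 8.

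The genes whose log2 CPM ran most like each member over the 41 samples, among 8494 genes of mean CPM of at least 10, are given as a description. All values in a sample share a library and its depth, and the 5 effector samples pull on every correlation. Ikzf2 ran most like Il2ra (Pearson r 0.962), the proliferation marker Mki67 (0.932), Lrrc32, which anchors latent TGF-beta on Tregs (0.912), Cish (0.901) and Coro2a (0.897). Foxp3 ran most like Tigit, an inhibitory receptor (0.830), Neb (0.801), Entpd1 (0.782), Adap1 (0.778) and Gna15 (0.765). Ikzf4 ran most like 4930431P03Rik (0.834), Nrp1, the gene under study (0.810), Mxd3 (0.795), Mki67 (0.784) and Socs2 (0.770).

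Ikzf1 ran most like Frmd7 (0.806), Pip4k2a (0.794), Diexf (0.775), Ski (0.772) and Arl4c (0.764), and Ikzf3 most like Naa20 (0.857), Golga7 (0.844), Antxr2 (0.844), I730030J21Rik (0.842) and Mthfs (0.829). Among the members the highest r was 0.754, of Ikzf2 with Ikzf4, and over the 36 Treg samples alone it was 0.200. Foxp3 with Ikzf2 had 0.564 over 41 samples and 0.0206 over the 36 Tregs. Foxp3 with Ikzf3 had 0.581 over 41 and 0.507 over 36, the highest among the Treg samples alone.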

How the data were processed

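Sorted T cells of mice with B16 tumours were profiled by RNA sequencing, in 45 libraries of 9 groups. Counts per gene symbol were deposited by the authors as raw read counts, for which the submitters' processing notes name STAR, featureCounts and the mm10 genome; the sources used here do not give versions, annotation or strand setting. A table of log2 values that the authors deposited, normalized and filtered to 10832 genes with limma named in the same notes, served as an alternative only.

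The counts of 4 near-identical pairs of libraries were summed (limit of chi-square per degree of freedom 5, set after seeing the values). The remaining 41 samples entered a single edgeR 4.0.16 quasi-likelihood fit (R 4.3.3, TMM, filterByExpr, robust dispersions, 32 residual degrees of freedom) with 13 comparisons. Log2 CPM used a prior count of 2. DESeq2 1.42.0, limma 3.58.1, RLE normalization, no filter, the 45 libraries, singly or doubly sorted samples alone, the ds2 libraries left out, the compared groups only, the replicate block and leaving out each sample were alternatives. The limma fit used the 45 libraries with no pair summed, so near-identical libraries counted as separate samples. The singly sorted set included the tumour samples joined from ds1 and 4. The doubly sorted set therefore kept a single sample of HetNrp1def tumour and of HetWT tumour. The fit was tested on simulated data. Totals of 2945638 to 35787148 counts limit the precision of low genes such as Foxp3, and intervals for a count of 0 take 3 counts as the upper limit.

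The 5 genes and the gene lists were chosen with earlier results of these data known. Named genes are the 5 members, at most 4 called genes a list with the smallest adjusted p, the 5 genes most like each member, and genes that overlap a member in the annotation. Lowest correlations of same-numbered samples were over 0.1 only for HetNrp1def against HetWT in LN. Ikzf5, Tnfrsf18 and Ctla4 samples in the closing section were chosen after their values were seen.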

Additional observations from a re-analysis of the deposited data

Results flagged for a closer look

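Each of the 45 sets of values, 1 gene in 1 group, was searched for a sample at the high or low end that lay apart from the others by Dixon's test at the 95% level. For normally distributed values chance flags about 1 in 20 groups, and 8 of the 45 sets held such a sample. The test was run on CPM, which can be skewed, with a Foxp3 SD of 103% to 194% of the mean in LN groups. The count of sets therefore cannot be set against that rate.

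For Foxp3, ds2 stood apart as the highest sample in 3 LN groups, with 68.8 CPM in N (the next sample had 9.78 CPM), 63.2 CPM in HetNrp1def (next 4.15 CPM) and 57.4 CPM in WT (next 5.44 CPM). In effector T cells ds1 was the highest, at 1.62 CPM against a next value of 0.182 CPM. For Ikzf1, ds2 of N tumour was the lowest at 131 CPM (next 299 CPM), and effector replicate 2 was the highest at 958 CPM (next 668 CPM). For Ikzf2, HetWT tumour replicate 2 was the lowest at 519 CPM (next 1217 CPM). For Ikzf3, WT LN replicate 3 was the highest at 269 CPM (next 75.6 CPM). Of the 8 samples, 4 were ds2 and 1 was ds1. No tissue effect of the 5 genes differed between genotypes past the threshold.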

How the results depend on the processing

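Fold changes of the 5 genes were recomputed under 10 alternatives, all planned, which gave 650 values, and with each sample left out in turn, which gave 885. Direction and side of the threshold were kept in 582 of the first and 825 of the second. The sign turned in 45 and 56 values, and all of these belonged to fold changes that had not been called; 1 was called after turning, Ikzf2 between tumour and LN in the limma fit of the deposited log2 table (adjusted p = 0.00703). The cause of these shifts was not tested. The low Foxp3 counts and the shallow ds2 libraries limit what can be seen of Foxp3, and 4 or 5 samples a group limit the genotype comparisons.

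With the doubly sorted samples alone the HetNrp1def and HetWT tumour groups kept a single sample each, so that fit is left out of these counts. In tumour Tregs against effector T cells the fits reported called all 5 genes, beside 1646 genes in all over the 4 genotypes and 838 within WT. With limma on the authors' log2 values the number was 2 within WT, beside 69 genes in all. It was 4 over all genotypes with limma on those values (without Foxp3), beside 552 genes. Within WT it was 4 with the compared groups only (731 genes in all) and without the ds2 libraries (589), each time without Ikzf3. The other alternatives kept the number at 5. Leaving out single samples moved it between 4 and 5 within WT and left it at 5 over all genotypes. Between tumour and LN over all genotypes it was 0 in the fit reported, beside 1644 genes called in all. It was 1, each time Ikzf4, with the 45 libraries (2122 genes in all), with the compared groups only (1657) and with DESeq2 (2210). RLE normalization (1657) and the replicate block (2031) also gave 1, Ikzf4. With limma on the authors' log2 values it was 2, beside 1512 genes. Leaving out single samples moved that count between 0 and 1. With limma on the authors' log2 values it was 1 between tumour and LN in HetWT (307 genes in all) and 1 in N (413). With DESeq2 it was 1 in HetNrp1def against HetWT in LN, Ikzf4, beside 318 genes in all.

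The lowest r of same-numbered samples was over 0.1 only in HetNrp1def against HetWT in LN (4 pairs, r at least 0.143), and elsewhere it was 0.100 or less. Pairs of ds2 samples had r of 0.225 to 0.46, and pairs of ds1 samples 0.219 to 0.45, in the comparisons that held them. For HetNrp1def against HetWT, both taken from heterozygous mice, r was 0.143 to 0.46 in LN and 0.0809 to 0.413 in tumour. The labels link same-numbered samples by the number alone, and whether it stands for shared mice or a shared batch is not given. The fits reported did not pair same-numbered samples. The replicate block moved the Ikzf4 value between tumour and LN to an adjusted p of 0.0210 and changed no other call of the 5 genes.

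With the 45 libraries as deposited, Foxp3 took the opposite sign at -0.053 for HetNrp1def against HetWT in LN. With limma on the authors' log2 values, Foxp3 took the opposite sign at -0.47 for HetNrp1def against HetWT in LN, -0.14 for N against WT in LN, 1.09 for N against WT in tumour, 1.23 for the tissue difference of N against WT and -0.15 for tumour against LN in WT. Ikzf1 did so at -0.067 for N against WT in LN. Ikzf2 did so at -0.19 for N against WT in LN, -0.94 for tumour against LN in HetNrp1def, -1.05 for tumour against LN over all genotypes, -0.34 for tumour against LN in N and -1.91 for tumour against LN in WT. Ikzf3 did so at -0.14 for tumour against LN in HetWT and -0.80 for tumour against LN in WT. Ikzf4 did so at -0.0099 for N against WT in LN. With the replicate block, Foxp3 took the opposite sign at -0.71 for HetNrp1def against HetWT in LN, 0.075 for N against WT in tumour and 0.71 for the tissue difference of HetNrp1def against HetWT. Ikzf1 did so at -0.0053 for N against WT in LN. Ikzf3 did so at -0.21 for tumour against LN in HetWT. The singly sorted set included the HetNrp1def and HetWT tumour samples joined from ds1 and 4. With the singly sorted samples alone, Foxp3 took the opposite sign at -1.87 for HetNrp1def against HetWT in LN, 0.21 for N against WT in tumour and 1.64 for the tissue difference of HetNrp1def against HetWT. Ikzf1 did so at -0.10 for tumour against LN in HetWT. Ikzf3 did so at -0.075 for N against WT in tumour and -0.015 for tumour against LN in WT. With the ds2 libraries left out, Foxp3 took the opposite sign at -1.80 for HetNrp1def against HetWT in LN, 0.22 for N against WT in tumour and 1.55 for the tissue difference of HetNrp1def against HetWT. The doubly sorted set kept a single sample of HetNrp1def tumour and of HetWT tumour. With the doubly sorted samples alone, Foxp3 took the opposite sign at 0.12 for HetNrp1def against HetWT in tumour, -0.61 for tumour against LN in N and -0.0077 for tumour against LN in WT. Ikzf1 did so at -0.47 for N against WT in LN. Ikzf2 did so at 0.055 for HetNrp1def against HetWT in tumour, -0.023 for N against WT in LN, 0.37 for tumour against LN in HetWT, -0.24 for tumour against LN in N and -0.51 for tumour against LN in WT. Ikzf4 did so at 0.58 for tumour against LN in HetNrp1def. With no filter on low counts, Foxp3 took the opposite sign at -0.085 for tumour against LN in N. Ikzf3 did so at -0.032 for N against WT in tumour. With DESeq2, Ikzf1 took the opposite sign at -0.032 for N against WT in LN. Ikzf2 did so at -0.022 for N against WT in LN. With RLE normalization, Ikzf1 took the opposite sign at -0.032 for N against WT in LN. Ikzf2 did so at -0.022 for N against WT in LN.

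With single samples left out, signs turned in the following. Foxp3 then ranged over -2.56 to 1.04 for HetNrp1def against HetWT in LN, -0.71 to 0.41 for HetNrp1def against HetWT in tumour, -1.37 to 3.34 for N against WT in LN and -0.39 to 0.33 for N against WT in tumour. Its other ranges were -1.09 to 2.51 for the tissue difference of HetNrp1def against HetWT, -3.49 to 1.22 for the tissue difference of N against WT and -0.29 to 1.86 for tumour against LN in N. Ikzf1 then ranged over -0.074 to 0.55 for HetNrp1def against HetWT in tumour, -0.16 to 0.15 for N against WT in LN and -0.14 to 0.71 for tumour against LN in HetWT. Ikzf2 then ranged over -0.32 to 0.048 for HetNrp1def against HetWT in tumour and -0.032 to 0.093 for N against WT in LN. Its other ranges were -0.20 to 0.18 for tumour against LN in HetWT and -0.059 to 0.13 for tumour against LN in WT. Ikzf3 then ranged over -0.46 to 0.13 for HetNrp1def against HetWT in tumour, -0.79 to 0.16 for N against WT in LN and -0.12 to 0.18 for N against WT in tumour. Its other ranges were -0.11 to 0.82 for the tissue difference of N against WT and -0.075 to 0.84 for tumour against LN in WT. Ikzf4 then ranged over -0.73 to 0.033 for N against WT in tumour and -0.46 to 0.25 for tumour against LN in HetNrp1def.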

Other observations

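Tnfrsf18, a Treg gene outside the Ikaros family that was chosen after its values were seen, ran from 1034 to 1875 CPM in tumour Treg samples and from 287 to 657 CPM in LN Treg samples. Ctla4 had its highest values in ds1 of the tumour groups, 6606 CPM in N and 6002 CPM in WT, against 1579 to 2071 CPM and 969 to 3031 CPM in the other samples of those groups. Ikzf5 ran in effector T cells from 12.02 CPM in replicate 3 to 239 CPM in ds1. In N tumour Tregs its ds1 sample was the lowest at 1.11 CPM.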
